A study of Mus musculus with 24 samples.

Results

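PROTAC FAK Degrader 1 was compared with the other PROTACs of the study, GSK215 and BSJ-04-146, in MS03 cells. The comparison takes 9 of the 24 libraries, namely the 3 labelled PROTAC FAK Degrader 1 on one side and the 3 of GSK215 and 3 of BSJ-04-146 on the other, with equal weight for the 2 drugs of the second side. The sample titles spell the last compound BSJ-04-0146, and the spelling of the study's methods is used here. The libraries were chosen by their labels alone, and every gene of the count table was considered. PROTAC FAK Degrader 1 was given at 1 μM and the other PROTACs at 0.1 μM, so that an effect of the compound and an effect of its dose cannot be told apart. GSK215 and BSJ-04-146 were given at the same dose and were compared with each other as a measure of how far a pair of PROTACs differed at 1 dose.

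MS03 is an immortalized murine Schwann cell (SC) line made from *Nf2* flox/flox cells that were infected with Cre and carry no functional *Nf2*. All groups therefore share the loss of *Nf2*, which encodes merlin, and all come from 1 line. Cells were treated for 24 hours, and the vehicle group received dimethyl sulfoxide (DMSO, 3 libraries). Messenger RNA was enriched by poly(A) selection and sequenced. The labels call the 3 libraries of a group biological replicates and do not say more of how the cultures were separated, so *P* values measure the spread between these libraries. In bulk RNA, a lower level in each cell and fewer cells with the transcript cannot be told apart.

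Focal adhesion kinase (FAK, encoded by *Ptk2*) is a cytoplasmic tyrosine kinase that relays signals from integrins at sites where cells attach to matrix. A PROTAC (proteolysis-targeting chimera) joins a ligand of a target protein to a ligand of an E3 ubiquitin ligase, so that the target is ubiquitinated and degraded by the proteasome. Because this acts on protein, *Ptk2* mRNA does not read the loss of FAK. In the integrated stress response, kinases that sense amino acid shortage, unfolded protein, heme shortage or viral RNA phosphorylate the translation factor eIF2α, which lowers general translation and raises translation of the transcription factor ATF4. ATF4 and its partners then induce genes of amino acid uptake and synthesis. Hypoxia-inducible factor (HIF) is degraded through the VHL ubiquitin ligase when oxygen is present and otherwise induces glycolytic and angiogenic genes. Schwann cells depend on the transcription factor SOX10 throughout development and for myelin gene expression.

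Total counts ranged from 14472462 to 21588406 over the 9 libraries and from 22952048 to 27449516 in the DMSO libraries, so that counting error is larger in the PROTAC libraries. Levels are given as CPM, a gene's counts relative to the library total scaled by edgeR's TMM factor, and differences as log2 differences with their standard error (SE). SC markers summed to 96.3 to 99.9 CPM with PROTAC FAK Degrader 1, 304 to 313 with GSK215, 260 to 286 with BSJ-04-146 and 106 to 110 with DMSO. Of these sums *Ncam1* had means of 58.9, 70.5, 56.2 and 55.5 CPM in the same order, and it differed little (log2 −0.10). *S100b*, a standard SC marker, had at most 18 counts in the 9 libraries, and the myelin-associated glycoprotein gene *Mag* had 0. Of 7 macrophage markers *Adgre1* was at 0 and *Ptprc* and *Itgam* had at most 1 count, and all 5 endothelial and all 5 neuronal markers were under 1 CPM. The macrophage sum was 11.3 to 12.0 CPM with PROTAC FAK Degrader 1 and 6.46 to 9.39 with the other PROTACs, of which *Cd68*, a lysosomal protein gene, made up most (a mean of 10.9, 5.96 and 7.57 CPM with PROTAC FAK Degrader 1, GSK215 and BSJ-04-146). The other macrophage marker tested, *Csf1r*, had means of 0.288, 0.776 and 0.958 CPM in the same order. Of 5 melanocyte markers 4 were under 1 CPM and the sum, which rests on *Mitf*, was 17.7 to 19.0 CPM with PROTAC FAK Degrader 1 and 8.35 to 10.1 with the others. Of 5 fibroblast markers *Lum* was at 0 and the sum, which rests on *Pdgfra*, was 8.68 to 9.14 CPM and 24.2 to 28.2.

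After PROTAC FAK Degrader 1, 11205 of 16070 genes tested differed from the other PROTACs (69.7%, edgeR quasi-likelihood test, adjusted *P* under 0.05), 5557 of them higher (34.6%) and 5648 lower (35.1%). With a change of at least 2-fold the number was 2359 (14.7%), of which 906 were higher (5.64%) and 1453 lower (9.04%). Against each drug alone, 10788 genes differed from GSK215 (67.1%, 33.7% higher and 33.4% lower) and 10414 from BSJ-04-146 (64.8%, 31.6% higher and 33.2% lower). With at least a 2-fold change these were 15.4% for GSK215 (5.86% higher and 9.51% lower) and 13.9% for BSJ-04-146 (5.48% higher and 8.41% lower). GSK215 and BSJ-04-146 differed from each other in 3615 genes (22.5%, 9.88% higher and 12.6% lower with GSK215), of which 76 were changed at least 2-fold (0.473%, 0.249% higher and 0.224% lower). Every library of PROTAC FAK Degrader 1 lay beyond all 6 others in 57.5% of genes, 28.7% above and 28.8% below. The median size of the log2 difference was 0.392 in the main comparison and 0.137 between GSK215 and BSJ-04-146. The mean of PROTAC FAK Degrader 1 lay beyond both other means in 11106 of the 11205 genes and between them in 99, and in 0 of the 2359 genes with at least a 2-fold change. With so many genes past the threshold, being past it says little by itself, and sizes are therefore given throughout.

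**Figure D1:**
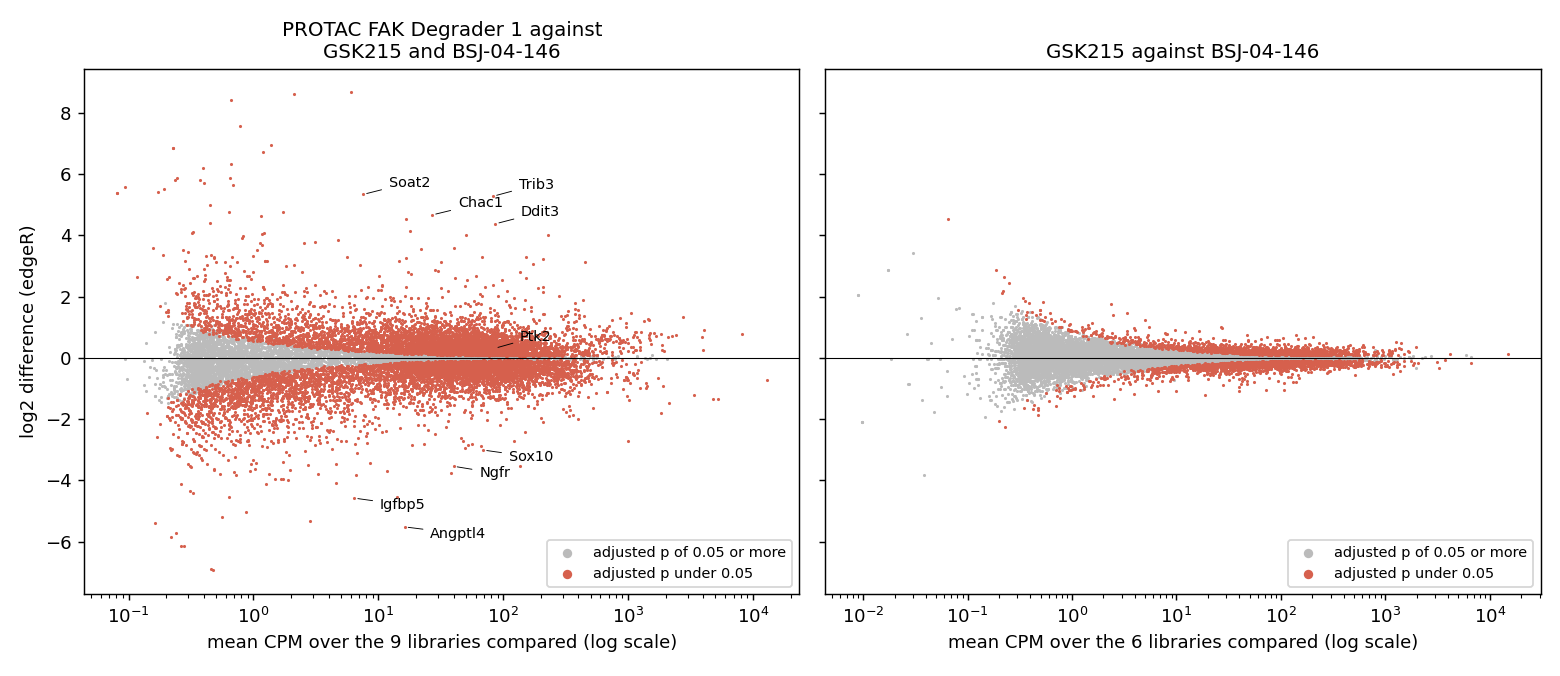
Each point is 1 of the 16070 genes tested, with its mean CPM over the libraries compared on the x axis (log scale) and its log2 difference on the y axis, with PROTAC FAK Degrader 1 set against the 2 other drugs on the left and those drugs against each other on the right. Red points are past an adjusted *P* of 0.05, which 69.7% of genes were on the left and 22.5% on the right, and the median size of the log2 difference was 0.392 on the left and 0.137 on the right.

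Genes of the integrated stress response and of amino acid metabolism were among those furthest above the other PROTACs. *Trib3*, which encodes a pseudokinase induced by ATF4 and CHOP, was at 246, 235 and 231 CPM with PROTAC FAK Degrader 1. It was at 4.92, 5.18 and 5.87 CPM with GSK215, at 7.01, 6.78 and 7.03 with BSJ-04-146 and at 37.3, 33.5 and 32 with DMSO. *Trib3* thus stood above DMSO with PROTAC FAK Degrader 1 and below it with the other PROTACs, with no overlap between any of these 4 groups, and the difference was 38.8-fold (log2 5.28 ± 0.0496 SE, edgeR adjusted *P* = 1.5e-44). *Chac1*, a glutathione-degrading enzyme, was at 77.6, 75.3 and 72.8 CPM with PROTAC FAK Degrader 1, at 2.3 to 3.58 in the 6 other PROTAC libraries and at 23.3, 25.1 and 21.9 with DMSO. PROTAC FAK Degrader 1 lay above DMSO and the other PROTACs below it, with GSK215 and BSJ-04-146 overlapping, and the difference was 25.4-fold (log2 4.67 ± 0.0711 SE, edgeR adjusted *P* = 1.3e-37). Non-overlap of PROTAC FAK Degrader 1 with the other PROTACs was a condition for naming *Trib3* and *Chac1*, and 28.7% of all genes lay above all 6 libraries.

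*Ddit3*, which encodes the transcription factor CHOP, was at 241, 237 and 234 CPM with PROTAC FAK Degrader 1, against 9.88 to 13.8 CPM with the other PROTACs and 18.8 to 21.0 with DMSO. It was 20.8-fold higher (log2 4.38 ± 0.0481 SE, edgeR adjusted *P* = 3.0e-42). *Ddit3* overlaps *Mars*, a gene of the opposite strand, and the strand setting of the counts is not given in the sources used here. *Atf3*, a stress-induced transcription factor of the same family, was at 48.7, 51.4 and 44.5 CPM with PROTAC FAK Degrader 1, at 1.51 to 2.12 with GSK215 and at 3.25 to 4.72 with BSJ-04-146. It also differed between GSK215 and BSJ-04-146 (log2 −1.01, edgeR adjusted *P* = 2e-05), and the DMSO libraries (6.92 to 7.97 CPM) lay above both.

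*Slc7a11*, the cystine importer, was at 56.2, 57.2 and 56.5 CPM with PROTAC FAK Degrader 1, at 4 to 5.49 with the other PROTACs and at 29.7 to 31.3 with DMSO. Here most of the 11.8-fold difference (log2 3.57 ± 0.0584 SE, edgeR adjusted *P* = 1.5e-36) was on the side of GSK215 and BSJ-04-146, whose log2 differences from DMSO were −2.75 and −2.57, while that of PROTAC FAK Degrader 1 was 0.91. *Ppp1r15a*, a phosphatase subunit that reverses eIF2α phosphorylation, showed the opposite split. It was at 180, 161 and 163 CPM with PROTAC FAK Degrader 1, at 13.9 to 19.8 with the other PROTACs and at 22.6 to 23.7 with DMSO, so that the log2 difference from DMSO was 2.86 with PROTAC FAK Degrader 1, −0.59 with GSK215 and −0.30 with BSJ-04-146. In both genes the libraries of PROTAC FAK Degrader 1 lay above those of DMSO and these above the other PROTACs, without overlap. Non-overlap of PROTAC FAK Degrader 1 with the other PROTACs was again a condition for naming them.

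All 30 genes of a list of ATF4 targets and integrated stress response genes were higher with PROTAC FAK Degrader 1 than with the other PROTACs, against 34.6% of all genes tested, and 27 of the 30 by at least 2-fold, against 5.64%. Their median log2 difference was 2.30, beside −0.02 over all genes, with a range of 0.61 (*Phgdh*, the first enzyme of serine synthesis) to 5.87. In all 30, each of the 3 libraries was above each of the 6, which held for 28.7% of all genes. The upper end was *Fgf21*, a secreted metabolic hormone, a fitted value that depends on libraries near 0, since it had at most 1 count in any library of the other PROTACs. With those libraries set to 3 counts each it was at least 11.1-fold higher (2.02, 1.93 and 1.73 CPM with PROTAC FAK Degrader 1), and the median of the list was unchanged.

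The transcript of ATF4 itself was at 559 ± 19.4 CPM (SD, n = 3) with PROTAC FAK Degrader 1, 135 ± 0.933 with GSK215, 142 ± 4.72 with BSJ-04-146 and a mean of 303 with DMSO (*Atf4* log2 2.01 ± 0.0268 SE, edgeR adjusted *P* = 1.5e-39). Among synthesis enzymes, the log2 difference from the other PROTACs was 2.28 for asparagine synthetase (*Asns*), 1.01 for *Psat1* of the serine pathway, 1.90 for the mitochondrial folate enzyme gene *Mthfd2*, 4.02 for *Aldh1l2* and 3.14 for the proline enzyme gene *Pycr1*. Against DMSO the first 3 were at 1.15, 0.23 and 0.46 with PROTAC FAK Degrader 1, at −1.12, −0.81 and −1.40 with GSK215 and at −1.14, −0.74 and −1.49 with BSJ-04-146. *Cth*, which makes cysteine from cystathionine, was at 106, 103 and 102 CPM against 7.72 to 10.8 with the other PROTACs. *Nupr1*, a stress-induced chromatin protein gene, was at 136, 130 and 136 CPM against 7.27 to 9.22. Both were also above DMSO, at 28.2 to 31.6 and 15.8 to 17.7 CPM. The lowest sizes in the list were *Phgdh*, *Cebpb* (0.63) and the arginine transporter gene *Slc7a1* (0.85).

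Each drug was set beside DMSO in turn, where 66.8% of genes differed with PROTAC FAK Degrader 1, 54.7% with GSK215 and 54.6% with BSJ-04-146. The 3 comparisons share the DMSO libraries and are therefore not independent of each other. With PROTAC FAK Degrader 1, 28 of the 30 stress response genes were higher than DMSO and 1 was lower, where 34.1% and 32.7% of all genes were, and the median log2 difference was 1.15. With GSK215, 1 was higher and 28 were lower (27.4% and 27.2% of all genes), with a median of −1.07. With BSJ-04-146, 0 were higher and 28 were lower (27.7% and 26.9%), with a median of −0.99. The distance between PROTAC FAK Degrader 1 and the other PROTACs in this list was thus made up of differences from DMSO in both directions.

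**Figure D2:**
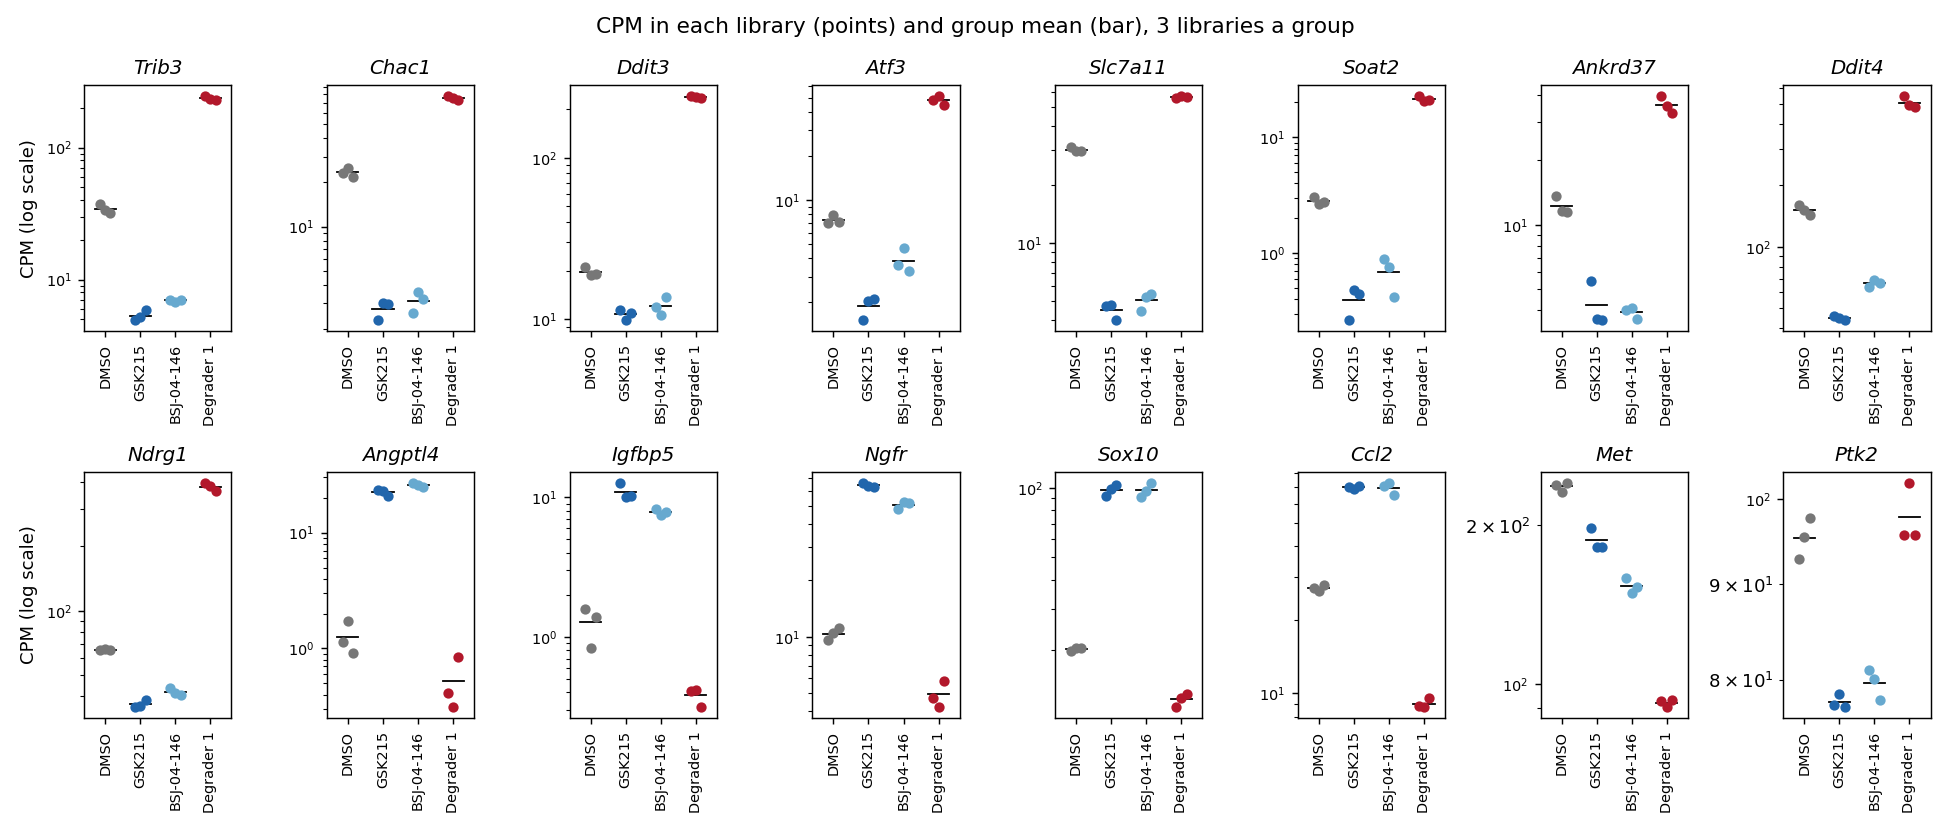
CPM of 16 genes (log axis, a scale of its own for each gene) in each library of DMSO, GSK215, BSJ-04-146 and PROTAC FAK Degrader 1, with points for libraries and bars for the group mean of 3. *Trib3*, *Chac1*, *Ddit3*, *Atf3*, *Slc7a11*, *Soat2*, *Ankrd37*, *Ddit4* and *Ndrg1* lie above DMSO with PROTAC FAK Degrader 1 and below it with the other PROTACs, *Angptl4*, *Igfbp5*, *Ngfr*, *Sox10* and *Ccl2* do the reverse, *Met* lies below DMSO with all 3 drugs, and *Ptk2* spans a range of 77.4 to 102 CPM.

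Promoters of 4 of the genes with the largest positive differences from the other PROTACs are shown because they hold the letters TGATGNAA, the core of the CEBP-ATF response element to which ATF4 with a C/EBP partner is known to bind, and that of *Ddit4* because it holds ACGTG, the core of the hypoxia response element. The windows run from 250 bases before to 50 after the RefSeq start site (GRCm38.p6), read 5′ to 3′ on the gene's strand. Capitals mark each match, searched on both strands, so that a match may read as the reverse complement.
*Trib3* (chr2:152344011-152344310, minus strand): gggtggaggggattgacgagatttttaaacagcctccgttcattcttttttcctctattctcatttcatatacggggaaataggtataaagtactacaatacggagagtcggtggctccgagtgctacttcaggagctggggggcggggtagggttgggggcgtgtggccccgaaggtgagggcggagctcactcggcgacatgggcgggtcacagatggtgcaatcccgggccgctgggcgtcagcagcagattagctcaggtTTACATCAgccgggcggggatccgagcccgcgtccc
*Chac1* (chr2:119350992-119351291, plus strand): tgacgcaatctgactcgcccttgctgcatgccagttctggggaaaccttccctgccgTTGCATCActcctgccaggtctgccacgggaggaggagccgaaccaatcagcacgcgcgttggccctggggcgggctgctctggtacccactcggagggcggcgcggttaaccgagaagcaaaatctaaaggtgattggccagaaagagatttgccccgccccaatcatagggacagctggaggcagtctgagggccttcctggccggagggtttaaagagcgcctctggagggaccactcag
*Nupr1* (chr7:126625421-126625720, minus strand): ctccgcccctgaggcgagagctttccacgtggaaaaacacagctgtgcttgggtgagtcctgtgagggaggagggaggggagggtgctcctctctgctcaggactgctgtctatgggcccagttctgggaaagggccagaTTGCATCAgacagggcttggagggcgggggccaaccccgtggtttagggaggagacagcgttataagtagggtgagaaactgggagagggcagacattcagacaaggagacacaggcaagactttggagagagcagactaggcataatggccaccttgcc
*Slc7a11* (chr3:50443564-50443863, minus strand): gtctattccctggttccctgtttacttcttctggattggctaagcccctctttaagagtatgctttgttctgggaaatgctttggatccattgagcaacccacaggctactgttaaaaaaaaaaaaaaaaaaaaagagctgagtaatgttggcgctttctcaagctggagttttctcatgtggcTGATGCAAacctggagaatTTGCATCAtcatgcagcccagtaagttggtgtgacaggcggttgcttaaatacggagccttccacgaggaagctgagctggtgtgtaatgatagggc
*Ddit4* (chr10:59951721-59952020, minus strand): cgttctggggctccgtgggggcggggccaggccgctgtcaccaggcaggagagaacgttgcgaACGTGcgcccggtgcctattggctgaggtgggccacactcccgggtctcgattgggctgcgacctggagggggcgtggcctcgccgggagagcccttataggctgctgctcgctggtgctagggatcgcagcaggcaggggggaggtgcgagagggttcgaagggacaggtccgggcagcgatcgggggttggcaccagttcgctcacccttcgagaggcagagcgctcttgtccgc

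Relative to the start site, the match begins at 14 in *Trib3*, −193 in *Chac1*, −110 in *Nupr1* and −66 and −47 in *Slc7a11*, where negative positions lie upstream. TGATGNAA was in 10 of the 27 stress response genes with a promoter entry (37%) and in 4.51% of all 27025 genes with one. The 10 were *Trib3*, *Chac1*, *Asns*, *Slc7a11*, *Atf3*, *Vldlr*, *Fgf21*, *Nupr1*, *Pck2* and *Pycr1*. The list was drawn up from genes known as ATF4 targets, so the share describes the list and not the treatment. Among the other lists the highest share of TGATGNAA was 23.1% (3 of 13 genes of the NF-kB list described below). ACGTG was in 24 of 34 genes of the HIF list described next (70.6%) and in 21.8% of all genes. The HIF list is made of genes known as HIF targets or of glycolysis, so its share also describes the list. Among the other lists the highest share of ACGTG was 46.7% (lysosomal list described below). ACGTG overlaps CACGTG, the palindromic E-box, which 8.09% of all genes hold and 4 of the 34 do. In *Ddit4* the match begins at −187. A match of letters is a description of the window and not a binding site shown here.

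HIF target and glycolysis genes were also higher with PROTAC FAK Degrader 1. *Ndrg1*, a hypoxia- and stress-induced gene, was at 396, 381 and 363 CPM, against 35.6 to 43.6 with the other PROTACs and 65.4 to 66.5 with DMSO (log2 3.28 ± 0.0323 SE, edgeR adjusted *P* = 6.2e-44). *Ddit4*, which encodes an inhibitor of mTORC1 signalling (REDD1), was at 547, 495 and 483 CPM, at 43.8 to 46.0 with GSK215 and at 63.6 to 69.1 with BSJ-04-146, beside 144 to 160 with DMSO. These are 9.71-fold and 9.29-fold differences. In both genes the 3 libraries of PROTAC FAK Degrader 1 were also above those of DMSO. Non-overlap with the other PROTACs was a condition for naming both genes, and 28.7% of all genes lay above all 6 libraries. *Ddit4* is also known as an ATF4 target, so the list is not one of oxygen sensing alone.

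Of 36 genes of this list, 34 were higher and 2 lower (34.6% and 35.1% of all genes), 21 higher by at least 2-fold (5.64% of all genes), with a median log2 difference of 1.02. Among targets outside glycolysis, *Ero1l*, an oxidase of the endoplasmic reticulum (ER), was at 1090, 1150 and 1090 CPM against 120 to 133 with the other PROTACs, and *Ankrd37* at 39.6, 35.5 and 32.9 CPM against 3.6 to 5.45. *Ankrd37* overlaps *Ufsp2* and *Lrp2bp* on the opposite strand. The mitophagy receptor gene *Bnip3* was at 220 ± 7.77 CPM (SD, n = 3), against 39.1 ± 1.96 with GSK215 and 35.8 ± 0.875 with BSJ-04-146, and carbonic anhydrase *Car9* at 75.3 ± 2.88 against 17.1 ± 0.845 and 16.4 ± 0.42. In each of these 4 genes PROTAC FAK Degrader 1 lay above all 6 libraries of the other PROTACs, as it did in 28.7% of all genes. For *Ero1l* and *Ankrd37* this was a condition for being named.

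Among glucose transporters and glycolytic enzymes, the log2 difference was 1.19 for the glucose transporter *Slc2a1*, 1.76 for *Slc2a3*, 1.16 for hexokinase *Hk2*, 1.26 for *Aldoa*, 1.23 for *Pgk1* and 0.73 for *Ldha*. *Slc2a1*, *Hk2* and *Ldha* were near DMSO with PROTAC FAK Degrader 1 (log2 0.08, 0.02 and −0.02) and below it with GSK215 (−1.05, −1.04 and −0.86) and BSJ-04-146 (−1.18, −1.24 and −0.65). Over the list, 24 genes were higher than DMSO and 5 lower with PROTAC FAK Degrader 1 (34.1% and 32.7% of all genes). With GSK215, 4 were higher and 32 lower (27.4% and 27.2%), and with BSJ-04-146, 2 were higher and 31 lower (27.7% and 26.9%). *Aldoc*, an aldolase gene with 5 to 18 counts in the libraries of PROTAC FAK Degrader 1, was one of the 2 lower genes (log2 −0.95, edgeR adjusted *P* = 0.0037), and without the second PROTAC FAK Degrader 1 library it was no longer past the threshold (−0.58, edgeR adjusted *P* = 0.077).

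Genes of Schwann cell identity were lower with PROTAC FAK Degrader 1 than with the other PROTACs. *Sox10* (chr15:79154908-79165240, GRCm38) was at 11.3, 12.4 and 12.8 CPM, at 91.7, 98.5 and 103 with GSK215, at 90.8, 96.9 and 105 with BSJ-04-146 and at 19.7, 20.3 and 20.3 with DMSO. GSK215 and BSJ-04-146 did not differ detectably (log2 0.00, edgeR adjusted *P* = 0.97), and PROTAC FAK Degrader 1 was 8.04-fold below them (log2 −3.01 ± 0.0658 SE, edgeR adjusted *P* = 2.4e-32) with all 3 libraries also under those of DMSO. *Ngfr*, the p75 neurotrophin receptor of immature and repair Schwann cells, was at 4.73, 4.23 and 5.83 CPM, at 63.4 to 66.3 with GSK215, at 48.3 to 52.4 with BSJ-04-146 and at 9.63 to 11.1 with DMSO. It was 11.6-fold lower (log2 −3.54 ± 0.0733 SE, edgeR adjusted *P* = 3.7e-33).

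Of 25 genes in the Schwann list, 20 passed the filter on low counts, of which 17 were lower (85%, beside 35.1% of all genes), 2 were higher and *Egr2*, the myelin regulator, was not past the threshold (log2 0.72, edgeR adjusted *P* = 0.17). Of the 20, 14 were at least 2-fold lower (9.04% of all genes), and the median was −1.47. *Mal*, which encodes a myelin membrane proteolipid, was at 0.0919, 0.209 and 0.105 CPM, or at most 4 counts, against 1.06 to 2.42 CPM. The neuregulin receptor gene *Erbb3* was at 5.36 ± 0.351 CPM (SD, n = 3), against 20.4 ± 1.45 with GSK215 and 18.0 ± 0.224 with BSJ-04-146, and the cadherin gene *Cdh19* at 1.17 ± 0.155 against 8.15 ± 0.34 and 7.23 ± 0.229. The myelin gene *Mbp* had a log2 difference of −1.17.

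Levels of these genes relative to DMSO differed from gene to gene with PROTAC FAK Degrader 1, at a log2 difference of −1.09 for *Ngfr*, −0.73 for *Sox10*, 0.63 for *Erbb3* and 0.97 for *Mbp*, as a description of these 4 genes. Of the 20, 7 were higher and 7 lower than DMSO, close to the 34.1% and 32.7% of all genes, with a median of −0.06. With GSK215 and with BSJ-04-146, 16 were higher and 0 lower in each case (27.4% and 27.7% of all genes were higher), with medians of 1.40 and 1.20. *Dhh* (desert hedgehog) and *Prx* (periaxin) were the 2 genes higher with PROTAC FAK Degrader 1 than with the other PROTACs. *Dhh* was at 18.2, 19.1 and 15.0 CPM against 8.87 to 12.6, and *Prx* at 20.8, 20.1 and 19.7 against 14.3 to 17.9.

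**Figure D3:**
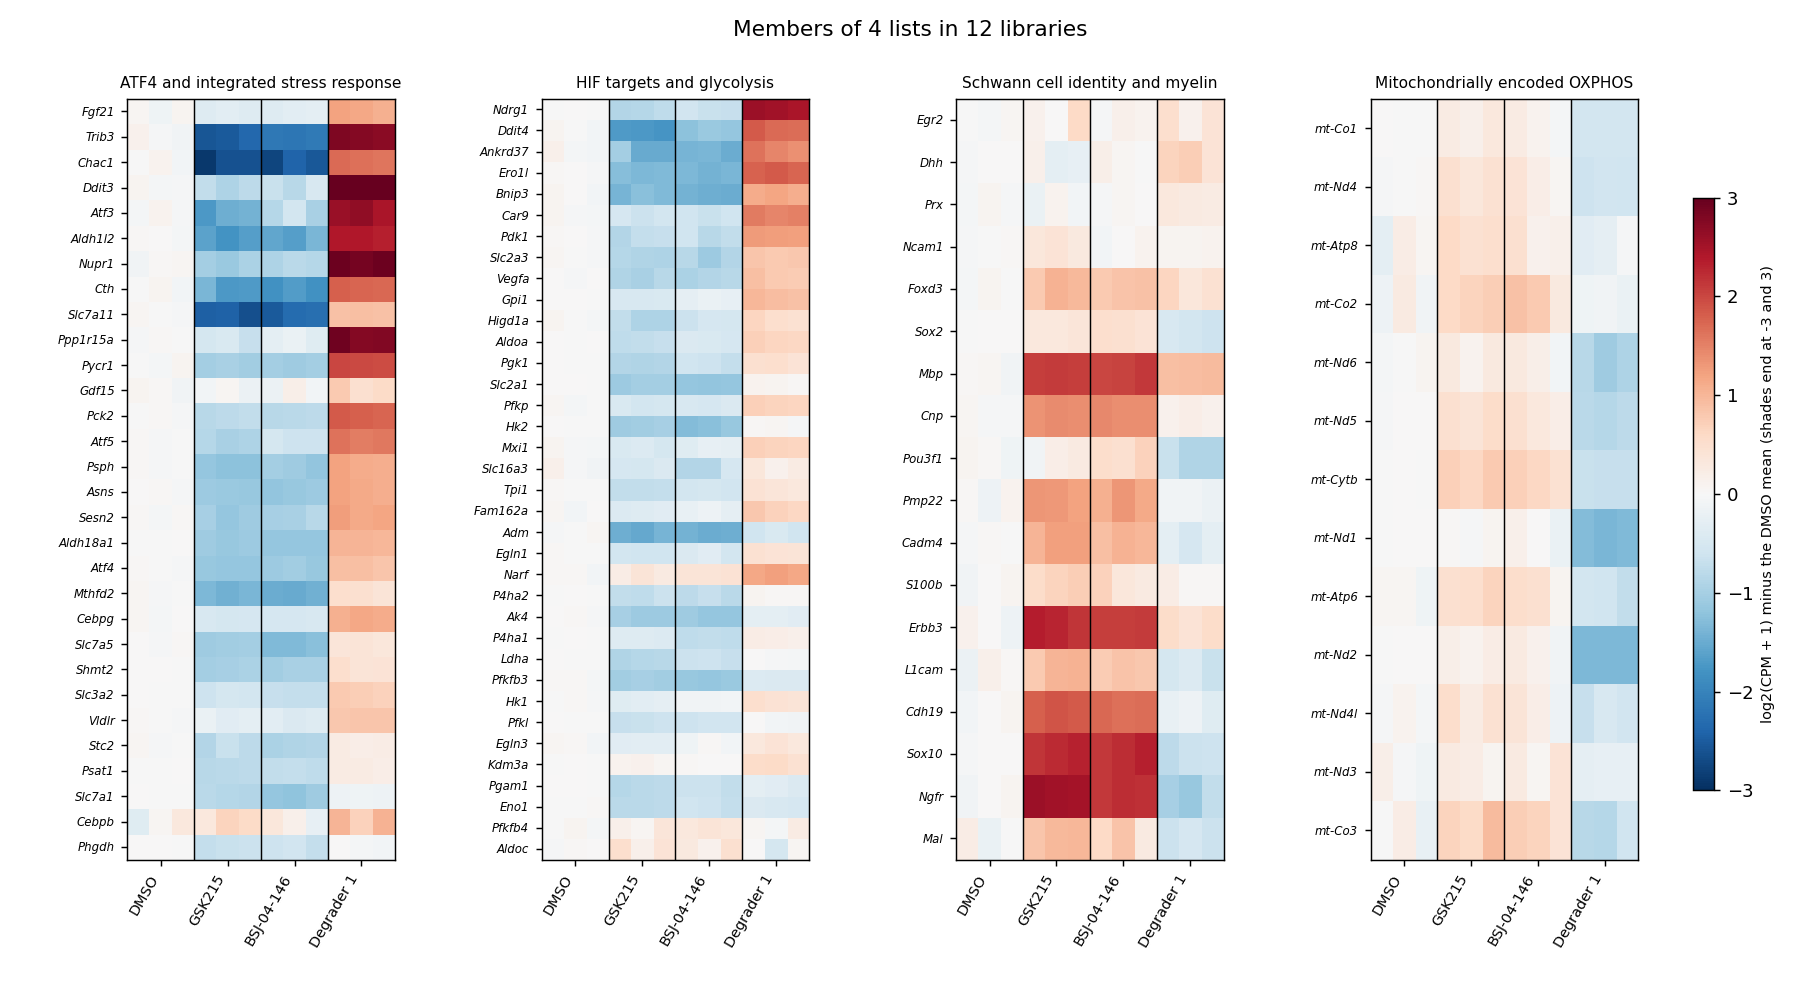
Each column is 1 of 12 libraries and each row a gene of the lists of integrated stress response (30), HIF and glycolysis (36), Schwann cell identity (18 of the 20 tested) and mitochondrially encoded genes (13), ordered by the log2 difference between PROTAC FAK Degrader 1 and the other PROTACs. Color is log2(CPM + 1) minus the mean of the DMSO libraries, where red is above and blue below, and shades end at −3 and 3. The GSK215 and BSJ-04-146 columns look alike, and most rows of the first list change color between them and the columns of PROTAC FAK Degrader 1.

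The largest negative difference among the protein-coding genes with a mean of at least 5 CPM and no overlap of libraries was that of *Angptl4* (chr17:33773750-33781830, GRCm38), a secreted inhibitor of lipoprotein lipase. It was at 0.413, 0.313 and 0.84 CPM with PROTAC FAK Degrader 1, which is 6 to 16 counts, at 20.8 to 23.4 with GSK215, at 24.6 to 26.9 with BSJ-04-146 and at 0.906 to 1.73 with DMSO. It was 46.0-fold lower (log2 −5.52 ± 0.155 SE, edgeR adjusted *P* = 1.1e-28). *Angptl4* is also known as a HIF target and moved opposite to the HIF list. *Igfbp5*, an insulin-like growth factor binding protein, was at 0.413, 0.417 and 0.315 CPM against 7.48 to 12.7, and the lipocalin gene *Apod* at 0.551, 1.1 and 0.998 CPM against 19.3 to 23.4. *Dmp1*, a mineral matrix protein gene, was at 0.689, 0.626 and 0.735 CPM against 8.49 to 11.0. *Olfml2b*, an olfactomedin family gene, was at 3.03, 4.64 and 4.67 CPM against 45.8 to 62.3, beside 16.6 to 18.0 with DMSO. The semaphorin receptor gene *Plxnb3* was at 0.873, 1.56 and 1.47 CPM against 15.8 to 18.7, beside 0.948 to 1.94 with DMSO, so that PROTAC FAK Degrader 1 overlapped DMSO and the other PROTACs did not.

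*Aldh3a1*, an aldehyde dehydrogenase, was at 15.6, 16.6 and 19.1 CPM with PROTAC FAK Degrader 1, 176 to 186 with GSK215, 206 to 216 with BSJ-04-146 and 19.4 to 20.2 with DMSO (log2 −3.53 ± 0.049 SE, edgeR adjusted *P* = 5.9e-39). *Prl2c2*, a prolactin family gene, showed another pattern, at 0.919, 1.3 and 1.16 CPM against 11.2 to 12.9 with the other PROTACs and 10.5 to 11.9 with DMSO. In *Prl2c2* the departure was thus on the side of PROTAC FAK Degrader 1, but it belongs to a family of near-identical copies and its count is uncertain. *Itga8*, an integrin subunit, was at 0.689, 1.25 and 1.42 CPM, at 7.36 to 12.1 with the other PROTACs and at 4.39 to 5.00 with DMSO. Among positive differences, *Soat2*, which esterifies cholesterol, was at 22.7, 20.8 and 21.2 CPM against 0.263 to 0.884 with the other PROTACs (4 to 15 counts) and 2.63 to 3.03 with DMSO (log2 5.34 ± 0.133 SE, edgeR adjusted *P* = 1.9e-30). *Angptl6*, of the same family as *Angptl4*, was at 48.9, 44.8 and 44.2 CPM against 1.71 to 2.3 and 2.72 to 3.23 with DMSO, so that PROTAC FAK Degrader 1 stood furthest from DMSO.

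Genes encoded by the mitochondrial genome, which specify subunits of the respiratory chain and ATP synthase, were all 13 lower with PROTAC FAK Degrader 1 (35.1% of all genes were), 10 of them at least 2-fold (9.04%), with a median log2 difference of −1.33. *mt-Nd2* of complex I was at 972, 963 and 968 CPM, at 2660 to 2890 with GSK215, at 2270 to 2980 with BSJ-04-146 and at 2430 to 2480 with DMSO (log2 −1.48 ± 0.0516 SE, edgeR adjusted *P* = 1.4e-25). *mt-Cytb* of complex III was at 2370 ± 29.7 CPM (SD, n = 3), 6170 ± 358, 5760 ± 541 and a DMSO mean of 3790. The 13 genes together took 1.83 to 1.86% of the counts with PROTAC FAK Degrader 1, 3.80 to 4.22% with GSK215, 3.31 to 4.07% with BSJ-04-146 and 2.99 to 3.03% with DMSO. *mt-Nd3* had 3 counts in each library of PROTAC FAK Degrader 1, so the size of its difference (log2 −1.94, 95% interval −2.88 to −1.0 from its SE) is poorly known. Against DMSO, 11 were lower with PROTAC FAK Degrader 1 (32.7% of all genes), 11 higher with GSK215 (27.4%) and 6 higher with BSJ-04-146 (27.7%). Libraries were poly(A)-selected, and the part of RNA quality or of the selection in these shares was not tested.

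Genes of DNA replication were lower with PROTAC FAK Degrader 1. Of 28 DNA replication genes, 25 were lower and 2 higher (35.1% and 34.6% of all genes), with a median log2 difference of −0.56. The cyclin E genes *Ccne1* and *Ccne2*, which drive entry into S phase, were at 10.7, 11.9 and 10.6 CPM against 31.8 to 35.3, and at 17.0, 19.4 and 17.1 against 48.6 to 57.1. The ribonucleotide reductase subunit gene *Rrm2* was at 63.0, 62.8 and 64.0 CPM, at 155 to 166 with the other PROTACs and at 252 to 257 with DMSO, so that all 3 drugs lay below DMSO and PROTAC FAK Degrader 1 furthest. The replication clamp *Pcna* (log2 −1.18) and the licensing factor *Cdc6* (−1.35) were also lower, whereas *Cdt1*, the other licensing factor, was higher (0.57, at 186 to 196 CPM against 120 to 137). Of 25 genes of mitosis, 13 were lower and 7 higher with a median of −0.11, and *Kif20a*, a mitotic kinesin gene, had the lowest value of −0.60. *Cdkn1a*, the p21 inhibitor of cyclin-dependent kinases, was at 41.9, 38.4 and 39.6 CPM, at 3.74 to 5.38 with GSK215, at 6.62 to 7.75 with BSJ-04-146 and at 15.7 to 16.6 with DMSO.

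Among 18 tested p53 targets, 12 were higher and 3 lower (median 0.38), where 34.6% of all genes were higher and 35.1% lower. Besides *Cdkn1a* (log2 2.82), *Bbc3*, which encodes the pro-apoptotic PUMA, was at 43.1, 42.3 and 40.9 CPM against 4.86 to 7.43 with the other PROTACs and 5.88 to 6.62 with DMSO, and the death receptor gene *Eda2r* at 21.3, 23.1 and 22.6 against 5.24 to 6.76. *Mdm2* and *Ccng1*, which p53 is known to induce, differed by 0.34 each. Of 14 FOXO and glucose-sensing genes 13 were higher (median 0.73, beside 34.6% of all genes higher), among them *Tsc22d3* (2.01), *Arrdc3* (1.58) and *Txnip*, an inhibitor of glucose uptake, at 147 ± 5.04 CPM (SD, n = 3) against 72.6 ± 1.14 and 75.0 ± 1.72. *Irs1*, the insulin receptor substrate, was the 1 lower gene (−0.99). *Txnip* was above DMSO (mean 26.2 CPM) with all 3 drugs.

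Chaperones of the endoplasmic reticulum and targets of XBP1 did not move as 1 group. Of 19 genes 9 were higher and 6 lower, with a median of 0.11, beside 34.6% and 35.1% of all genes. *Hspa5* (BiP) was at 2170, 2170 and 2060 CPM against 858 to 1010 with the other PROTACs and 1330 to 1390 with DMSO, *Herpud1* at 94.3, 97.0 and 87.7 against 14.5 to 16.0, and *Xbp1* at 67.4, 66.8 and 67.4 against 28.2 to 34.2. The lectin chaperone *Calr* (log2 −0.73), *Pdia3* (−0.82) and *Dnajb11* (−1.07) were lower. Of 14 heat shock chaperone genes 9 were lower and 4 higher, among the latter *Hspb1* (1.25) and mitochondrial *Hspd1* (0.22). Lower were *Hsph1* (−1.19) and *Dnaja1* (−1.14). *Hspa1a* and *Hspa1b* were lower too (−1.45 and −1.47) but are near-identical copies whose counts are uncertain. Of 20 NRF2 antioxidant genes 9 were higher and 9 lower (45% each). *Hmox1*, heme oxygenase, was at 104, 105 and 95.5 CPM against 30.8 to 42.2 with the other PROTACs and 27.8 to 28.8 with DMSO. *Nqo1* was lower (−1.19), by −0.65 against GSK215 and −1.72 against BSJ-04-146. *Gclc*, of glutathione synthesis, was not past the threshold (0.01, edgeR adjusted *P* = 0.81).

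Genes of matrix, adhesion and receptors were mostly lower. Beside 35.1% of all genes lower and 34.6% higher, 20 of 22 matrix genes were lower and 1 higher (median −0.79), and *Thbs1*, thrombospondin 1, was at 195, 208 and 234 CPM, at 1610 to 1670 with GSK215, at 1140 to 1190 with BSJ-04-146 and at 623 to 641 with DMSO. *Fn1* (log2 −0.67) and *Col1a1* (−0.46) differed less. Of 26 genes of focal adhesions, where FAK resides, 16 were lower and 8 higher with a median of −0.30. The tensin gene *Tns1* was at 61.9, 62.2 and 69.2 CPM, against 232 to 241 with GSK215, 309 to 351 with BSJ-04-146 and 41.8 to 44.8 with DMSO, and the integrin subunits *Itgb3* (−1.75), *Itgav* (−0.95) and *Itgb1* (−0.64) were lower, while *Itga1* was higher (0.62, at 8.82, 10.5 and 9.3 CPM against 5.04 to 7.43). Of FAK's partners, *Src* was at −0.06 and not past the threshold, *Pxn* was higher by 0.11 and *Bcar1* lower, at −0.26. Of 16 tested contractile targets of SRF, 8 were lower, among them *Myl9* (−3.17) and *Actb* (−0.91), and 5 higher, among them *Fhl1* (1.32), with a median of −0.12. *Myl9* had only 3 to 10 counts with PROTAC FAK Degrader 1 and *Fhl1* 13 to 21 with the other PROTACs. *Acta2*, *Actg2* and *Cnn1* had at most 8 counts and were not tested.

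*Ptk2* (chr15:73205102-73423280, GRCm38) was at 95.7, 102 and 95.6 CPM with PROTAC FAK Degrader 1, at 77.6, 78.6 and 77.4 with GSK215, at 81.0, 80.1 and 78.1 with BSJ-04-146 and at 92.9, 95.4 and 97.7 with DMSO. The 3 libraries of PROTAC FAK Degrader 1 overlapped those of DMSO and lay above the other 6 (log2 0.31 ± 0.0314 SE, edgeR adjusted *P* = 2.4e-11). *Ptk2b*, which encodes the related kinase PYK2, had at most 4 counts and was not tested. Of the E3 ligase genes *Vhl* was at 47.4, 49.1 and 45.1 CPM against 29.3 to 33.1 with the other PROTACs (log2 0.63) and *Crbn*, encoding cereblon, at 47.8, 46.4 and 45.3 against 27.3 to 35.4 (0.59). Of 9 subunit genes of the VHL and cereblon ligases 4 were higher and 3 lower, with a median of 0.05, beside 34.6% and 35.1% of all genes. *Crbn* overlaps *Trnt1* on the opposite strand. *Nf2* transcript was at 175 to 179 CPM against 155 to 172 (0.14), and counts per gene do not read the deleted part.

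Of 15 tested receptor tyrosine kinase genes 12 were lower and 1, the collagen receptor gene *Ddr2*, higher (0.80), with a median of −0.76, beside 35.1% of all genes lower and 34.6% higher. *Met*, the receptor of hepatocyte growth factor, was 1.84-fold lower than with the other PROTACs (log2 −0.88 ± 0.0321 SE, edgeR adjusted *P* = 6.9e-25), by −1.02 against GSK215 and −0.74 against BSJ-04-146. *Fgfr1* was at 31.3, 28.6 and 30.8 CPM against 84.4 to 91.6, beside 33.2 to 34.1 with DMSO, and *Pdgfra* at 8.55, 8.71 and 9.03 against 24.0 to 27.9, beside 11.7 to 13.4. In both genes the departure from DMSO was mainly on the side of the other PROTACs. Among genes of ERK output, 10 were higher and 5 lower of 21 (47.6% and 23.8%), with a median of 0.07. The feedback inhibitor *Spry1* was lower (−1.57) and *Fos* (2.79) and *Myc* (1.03) were higher, while *Dusp6* (−0.09) and *Spry4* (0.01) were not past the threshold. YAP and TEAD targets had a median of −0.11 over 20 genes, with *Ctgf* lower (2.48, 2.09 and 2.63 CPM against 7.21 to 13.0) and *Cyr61* higher (0.33).

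Of 16 NF-kB feedback and chemokine genes 12 were lower and 3 higher (median −0.52), beside 35.1% and 34.6% of all genes. *Ccl2*, a chemokine that recruits monocytes, was at 8.82, 8.76 and 9.56 CPM with PROTAC FAK Degrader 1, 68.8 to 70.7 with GSK215, 65.1 to 73.0 with BSJ-04-146 and 26.2 to 27.9 with DMSO (log2 −2.95 ± 0.0611 SE, edgeR adjusted *P* = 3.8e-33). *Cxcl5* was at 7.08, 6.83 and 6.72 CPM against 24.1 to 36.6, and the log2 difference of the inhibitor *Nfkbia* was −1.12. *Il6* and *Nlrp3* had at most 3 counts and were not tested. *Bcl3* was past the threshold (0.21, edgeR adjusted *P* = 0.034) and lost it in 9 alternative settings. In the interferon and antigen presentation list 10 of 22 were lower (45.5%) and 3 higher, with *Tapbp* lower (−1.57) and *Rsad2* (1.98) higher. Of 22 lysosomal genes 15 were lower, such as *Lamp1* (−1.29) and *Ctsd* (−1.23), and 5 higher. Among the higher were the autophagy receptor gene *Sqstm1*, at 1250, 1190 and 1140 CPM against 409 to 635, and the proton pump genes *Atp6v1b2* (0.60) and *Atp6v0d1* (0.44). Against DMSO, 13 of the 22 were higher and 6 lower with PROTAC FAK Degrader 1 (34.1% and 32.7% of all genes). With GSK215 18 were higher and 2 lower (27.4% and 27.2%), and with BSJ-04-146 21 and 0 (27.7% and 26.9%). Of 24 ribosome biogenesis genes 14 were lower and 7 higher, such as *Nop14* (0.87) and *Npm1* (0.68), with a median of −0.19.

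Of 23 genes of cholesterol synthesis and uptake 17 were lower with PROTAC FAK Degrader 1 than with the other PROTACs and 2 were higher (35.1% and 34.6% of all genes), with a median log2 difference of −0.47. The other PROTACs were unlike each other in this list, with medians against DMSO of −0.88 with PROTAC FAK Degrader 1, −0.57 with GSK215 and 0.00 with BSJ-04-146. Between GSK215 and BSJ-04-146, which shared a dose, 20 of the 23 differed (22.5% of all genes did), all 20 lower with GSK215, with a median of −0.55. Other lists also differed between these drugs in 1 direction. Lower with GSK215 were 14 of 20 NRF2 and 12 of 22 lysosomal genes, and higher were 14 of 22 matrix and 12 of 19 ER chaperone genes. *Fdps*, which makes farnesyl diphosphate, was at 50.5, 53.3 and 47.2 CPM with PROTAC FAK Degrader 1, overlapping GSK215. It was at 47.8, 47.6 and 46.2 CPM with GSK215 and at 107, 102 and 83.5 with BSJ-04-146, and *Insig1* at 69.2 ± 0.725 (SD, n = 3) and 143 ± 1.04. *Lss* was higher in the main comparison (0.29) but did not differ past the threshold from BSJ-04-146 alone (0.05, edgeR adjusted *P* = 0.29).

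Among protein-coding genes past the threshold, expressed at a mean of 5 CPM or more and without overlap of libraries, the largest differences at the shared dose were about 2-fold. *Tm7sf2*, a sterol reductase gene that overlaps *Vps51*, was at 9.65, 11.8 and 11.9 CPM with GSK215 and 28.6, 25.9 and 24.1 with BSJ-04-146 (log2 −1.22, edgeR adjusted *P* = 3.8e-14), and *Abca1*, the cholesterol exporter, at 7.68, 6.57 and 7.01 against 3.65, 2.76 and 2.6 (1.23, edgeR adjusted *P* = 7.5e-07). *Gpnmb* and *Lgr6* were lower with GSK215 by 1.07 each, and *Col12a1* (1.02) and *Prelp* (0.97) were higher. With PROTAC FAK Degrader 1 *Abca1* was at 9.33, 9.91 and 11.7 CPM, above both, and *Tm7sf2* at 7.63, 6.47 and 6.83, below both. Of 30 stress response genes 9 differed between GSK215 and BSJ-04-146 (5 lower and 4 higher with GSK215) with a median of −0.05, where 22.5% of all genes differed.

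**Figure D4:**
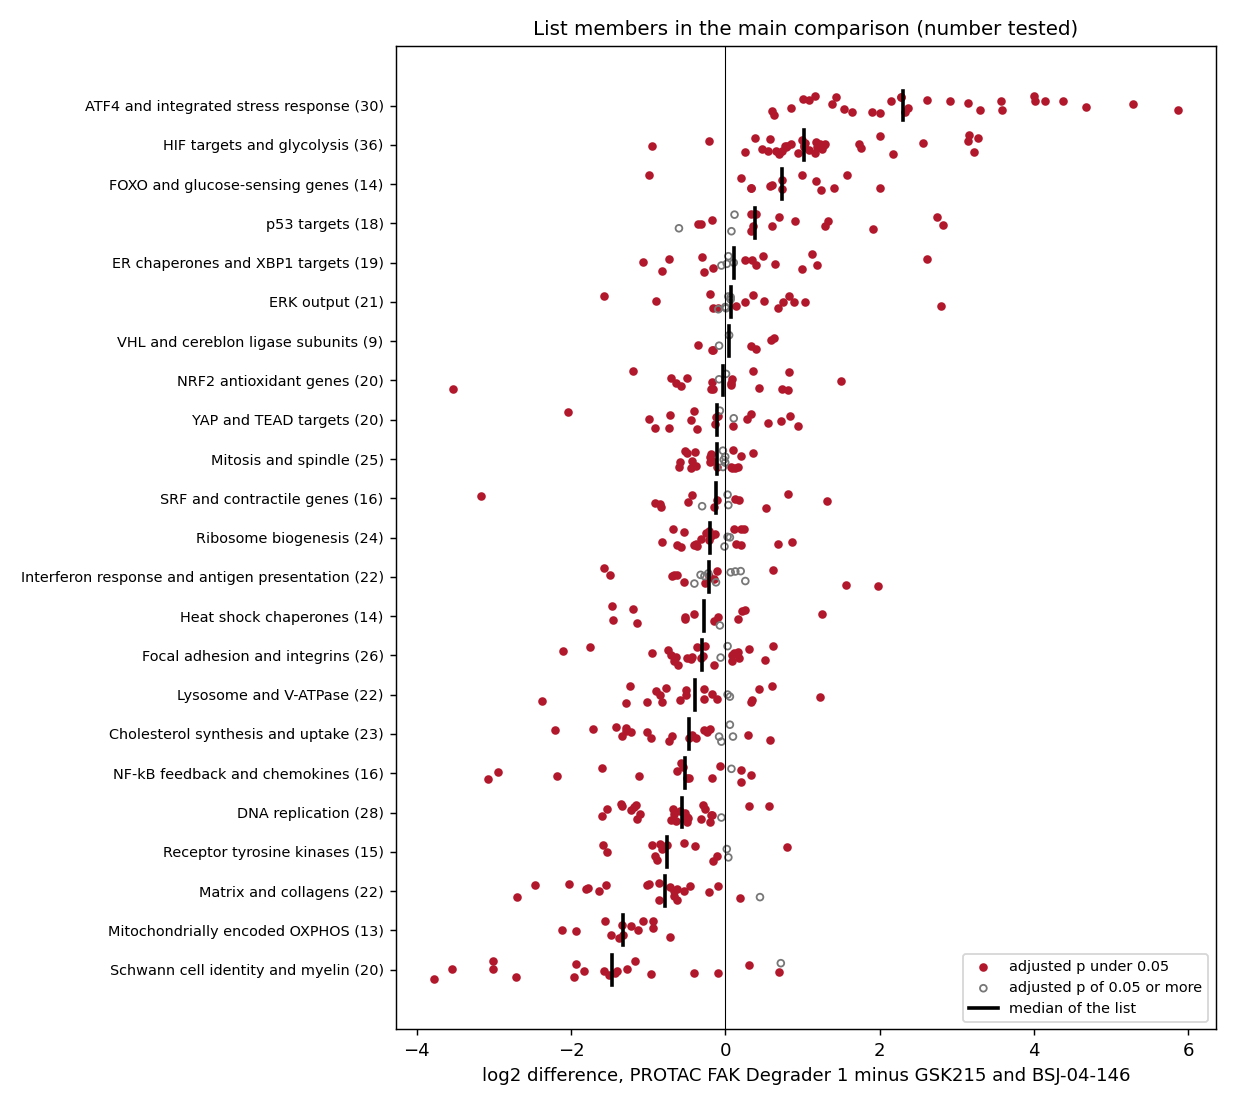
Log2 differences between PROTAC FAK Degrader 1 and the other PROTACs for the tested members of 23 gene lists, ordered by the list's median (black bar), with the number tested in parentheses. Filled points are past an adjusted *P* of 0.05 and open points are not. The medians run from −1.47 (Schwann cell identity) to 2.30 (ATF4 and integrated stress response), beside −0.02 over all genes.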

How the data were processed

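RNA of MS03 cells was poly(A)-selected and sequenced by a commercial service. The authors deposited raw read counts per gene, unnormalized, for 24 libraries. The submitters' processing notes name Trimmomatic 0.36, STAR 2.5.2b, featureCounts of Subread 1.5.2 and build GRCm38, and strand setting and annotation release are not given in the sources used here. 0 columns of per-sample values were left unused.

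Genes passing edgeR's filterByExpr (16070 of 49315) were fitted with TMM factors and the quasi-likelihood test of edgeR 4.0.16 (R 4.3.3) over all 24 libraries (16 residual df), and the contrasts weighted GSK215 and BSJ-04-146 equally. *P* values were adjusted by Benjamini-Hochberg over all genes tested, with a threshold of 0.05. The SE is the log2 difference divided by the square root of F. The study's own log2(CPM + 4) scale was tried with limma 3.58.1, and DESeq2 1.42.0 was another alternative. The procedure was tested on simulated data in which only a small part of the genes was changed, so that test does not cover a change in most genes. Replicates differed by more than sampling noise in every pair (chi-square over genes divided by its df, 1.8 to 7.02), so each library counted once.

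The libraries were taken by their labels, and the choice of this comparison, the gene lists and their members was made with earlier results of these data known. Genes were named as the 12 largest differences per direction among protein-coding genes called (mean CPM 5 or higher, no overlap of libraries), up to 4 per list and direction, 7 fixed genes (*Ptk2*, *Ptk2b*, *Vhl*, *Crbn*, *Met*, *Sox10* and *Nf2*), and the 5 largest per direction between GSK215 and BSJ-04-146. Other list members, mostly given as mean ± SD or by their log2 difference alone, were chosen after their values were seen. Gene coordinates are from GENCODE M21 (GRCm38), which had an entry for 48970 IDs. Promoters are RefSeq windows (32851 entries). Overlap was looked up for genes named by this rule. Without a known strand setting, counts of those given above that overlap another on the opposite strand (*Ddit3*, *Aldh1l2*, *Ankrd37*, *Prx*, *Ccne2*, *Kif20a*, *Dnaja1*, *Hspd1*, *Bcl3* and *Crbn*) may include its reads. Of those given above, *Cth*, *Dhh*, *Itga1*, *Tapbp* and *Tm7sf2* overlap a gene on their own strand. Values of some list members are not reported here.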

Additional observations from a re-analysis of the deposited data

How the results depend on the processing

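The number of genes that differed between PROTAC FAK Degrader 1 and the other PROTACs was 11205, and stood at 10828 with DESeq2, 11219 with library totals in place of TMM, 11386 with limma on log2(CPM + 4), 11435 without a filter on low counts, 10875 with the 9 PROTAC libraries alone and 10514 with libraries thinned to the smallest total. Without 1 replicate it was 10626 to 11135, and 10241 to 10402 against GSK215, 9877 to 9986 against BSJ-04-146 and 2574 to 3389 for GSK215 against BSJ-04-146. A required change of at least 2-fold lowered the counts to 2359, 2471, 2232 and 76 in the same order, since many differences were smaller. With that requirement, which 14.7% of all genes met, the members past the threshold were 21 of 36 for HIF, 3 of 20 for NRF2, 9 of 28 for DNA replication, 0 of 25 for mitosis, 5 of 18 for p53, 8 of 23 for cholesterol, 0 of 24 for ribosome biogenesis, 2 of 26 for focal adhesion, 2 of 16 for SRF, 1 of 20 for YAP and TEAD, 3 of 21 for ERK output, 2 of 15 for receptor tyrosine kinases, 8 of 22 for matrix, 4 of 22 for interferon, 5 of 16 for NF-kB, 5 of 19 for ER chaperones, 5 of 14 for heat shock, 5 of 22 for lysosome, 5 of 14 for FOXO and 0 of 9 for the ligase subunits. The median of the NRF2 list (−0.03) turned to 0.099 with GSK215 alone on the second side, and the cause was not tested.

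With the replicate number as a block the counts were 11171, 10730, 10375 and 3552. Same-numbered libraries did not deviate together (r of −0.0243 to 0.0356, under the 0.1 required), so the numbers were not taken to pair the samples.

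Apart from the 2-fold requirement, 4 of 172 single genes lost the threshold in some setting, with their direction kept. *Aldoc* and *Lss* are given above, *Tfeb* was at 0.16 against BSJ-04-146 alone (edgeR adjusted *P* = 0.19), and *Bcl3* had an adjusted *P* of 0.05 to 0.13 over 9 settings. Genes with few counts, such as *Fgf21*, *Mal* and *mt-Nd3*, are limited by depth, and their size is known only as a bound or with a wide error.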
